A study of Homo sapiens with 4 samples.

Results

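The 24 h comparison sets NK-92 cells of an edited line against wild-type NK-92 cells, both with IL-2 given 24 h before RNA extraction. NK-92 is an established human natural killer (NK) cell line that needs interleukin 2 (IL-2) to grow. In the edited line, ΔOGT-ISS, CRISPR-Cas9 was used to delete an intronic splicing silencer of OGT with the purpose of keeping OGT expressed and raising O-GlcNAc, and the control line (WT) is unedited NK-92. Each line has 1 library at 24 h, so 2 of the 4 libraries of the series are compared here, and the other 2 are from the same lines after 48 h of IL-2. The sample titles carry IL-2 in the 24 h names alone, whereas the treatment labels list IL-2 in all 4 libraries, and the treatment labels are followed here. The labels do not say whether ΔOGT-ISS is 1 clone. With 1 edited line and 1 library a side, an effect of the deletion and any other difference between the 2 cultures cannot be told apart.

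Members were all genes with at least 10 counts in one of the 24 h libraries, which held 19483 of the 61860 genes in the count table. The libraries totalled 28576566 counts in ΔOGT-ISS and 24809269 in WT. The signal recognition particle RNA RN7SL1 took 2.76% of the counts in ΔOGT-ISS and 4.39% in WT, a difference whose part in the results was not tested. Across the counted genes log2 CPM (counts scaled to the library total) had a Pearson r of 0.988 between the libraries, given as a description. Values below are paired in the order ΔOGT-ISS, WT. A ratio is the TMM-normalized CPM of ΔOGT-ISS over that of WT, followed in parentheses by its exact conditional binomial 95% interval. These intervals cover counting error only, so they leave out the variation between cultures, and there is no replicate check of any difference. A gene is called higher or lower where the whole interval lies past 2-fold.

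NK cells kill target cells by releasing granules that hold perforin, granzymes and granulysin, and they secrete cytokines and chemokines. Activating receptors such as the natural cytotoxicity receptors signal through small adaptors such as TYROBP (DAP12), HCST (DAP10) and CD247. IL-2 acts through IL2RA, IL2RB and IL2RG, the kinases JAK1 and JAK3 and the factor STAT5. OGT attaches O-GlcNAc, a single sugar, to serine and threonine residues of nuclear and cytoplasmic proteins, and OGA removes it.

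The libraries carried the defining markers of the labelled cell type. Of 17 NK identity genes 16 were counted, among them NCAM1 (CD56) with 13731 and 11118 counts, the IL-2 receptor subunit IL2RB with 22562 and 19752, and the factors TBX21 with 8020 and 5604 and EOMES with 9260 and 9282. The ratios of these 4 lay between 0.847 and 1.22. Of the list, 3 members were lower (TYROBP, GNLY and GZMB, described with their groups) and 0 were higher, with a median log2 ratio of -0.47. KLRF1 was the 1 marker not counted, with 0 and 4 counts. The T cell gene CD3E was also well detected (9158 and 7692 counts, ratio 1.01, interval 0.981 to 1.04), while CD3D had 0 and 2.

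More genes were lower in ΔOGT-ISS than higher. Of the 19483 genes, 153 were called higher (0.785%) and 471 lower (2.42%), 624 in all (3.2%). Among the 12459 protein-coding genes 93 were higher (0.746%) and 357 lower (2.87%), 450 in all (3.61%), with 50.3% of log2 ratios above 0 and 49.7% below. Among the 10793 genes with at least 100 counts in one library 76 were higher (0.704%) and 227 lower (2.1%), 303 in all (2.81%), with 53.5% above 0 and 46.5% below. The median log2 ratio of all counted genes, which the scaling sets near 0, was 0.01, with 51.3% of genes above 0 and 48.7% below. By the ratio alone, without its interval, 1106 genes lay past 2-fold upward (5.68%) and 1601 downward (8.22%). With the interval required to lie past 4-fold, 24 genes were higher and 134 lower. The lower protein-coding genes had a median deposited FPKM (a level per length of transcript) of 0.278 in ΔOGT-ISS and 1.65 in WT. The higher ones had 1.54 and 0.342, so most called genes were of low abundance in both directions.

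**Figure D1:**
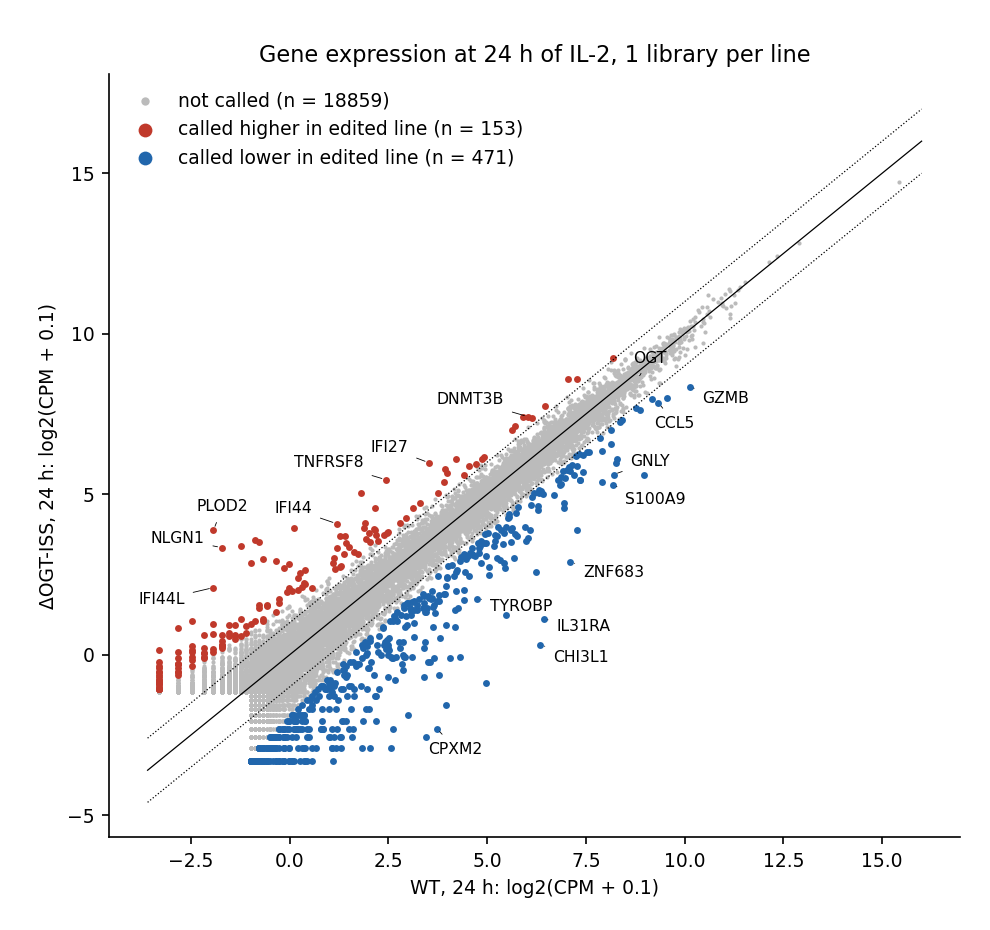
Level of each counted gene at 24 h in WT (horizontal) and ΔOGT-ISS (vertical), both as log2(CPM + 0.1), 1 library per line; the solid line marks equal levels and the dotted lines a 2-fold difference. The 471 genes called lower (blue) include abundant genes such as GZMB and CCL5, and the 153 called higher (red) include PLOD2 and IFI44L.

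The target was not higher in ΔOGT-ISS by gene counts. OGT (ENSG00000147162, GRCh38 chromosome X, 71533083 to 71575897) had 11132 and 11056 counts, a ratio of 0.855 (0.833 to 0.878), and OGA (ENSG00000198408, chromosome 10, 101784443 to 101818465) had 3945 and 3855, a ratio of 0.869 (0.831 to 0.909). Gene counts do not separate spliced from intron-retaining OGT transcripts, and so they do not check the deletion. Of the 13 genes of hexosamine synthesis and O-GlcNAc cycling 11 were counted and 0 were called. The furthest from 1 were GNPDA1, a glucosamine-6-phosphate deaminase (109 and 164 counts, ratio 0.564, interval 0.439 to 0.723), and NAGK, which salvages N-acetylglucosamine (915 and 1031, ratio 0.754, interval 0.689 to 0.825). GFPT1, which makes the first committed intermediate of the pathway, stood at 0.922 (0.870 to 0.977).

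Several of the largest upward differences were in genes with few counts in WT. PLOD2, a collagen lysyl hydroxylase (chromosome 3, 146069440 to 146163653), had 425 counts in ΔOGT-ISS and 4 in WT, a ratio of 90.2 (35.0 to 333). NLGN1, a neuronal adhesion protein (chromosome 3, 173396284 to 174286644), had 291 and 5 counts, a ratio of 49.4 (20.9 to 153). GCSAM, a signalling protein of germinal centre B cells, had 326 and 12 counts (23.1), and CAVIN4, a caveolar protein of muscle, had 447 and 24 (15.8). All 4 thus had at most 24 counts in WT against 291 or more in ΔOGT-ISS. KLHL13, an adaptor of the cullin 3 ubiquitin ligase, had a ratio of 7.98 (5.02 to 13.4), and PALLD, an actin-binding protein, 10.9 (6.68 to 19.1).

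Immune receptors were also among the 12 largest upward differences. TNFRSF8, which encodes CD30 (chromosome 1, 12063377 to 12144207), had 1271 counts in ΔOGT-ISS and 131 in WT, a ratio of 8.24 (6.88 to 9.94). ALCAM, a ligand of the T cell antigen CD6 (chromosome 3, 105366909 to 105576900), had 953 and 84 counts, a ratio of 9.63 (7.70 to 12.2). CD6 itself was called higher, with 556 and 189 counts and a ratio of 2.50 (2.11 to 2.96), so that both genes of this receptor and ligand pair were higher. TNFSF8, the ligand of CD30, went the other way, with 9 and 107 counts and a ratio of 0.0714 (0.0318 to 0.141). IFI44L and IFI44, also among the 12, are described with the interferon genes.

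The largest differences downward included secreted and surface proteins. CHI3L1, a secreted chitinase-like protein (chromosome 1, 203178931 to 203186749), had 33 counts in ΔOGT-ISS and 2010 in WT, a ratio of 0.0139 (0.00957 to 0.0196). IL31RA, a subunit of the interleukin 31 receptor (chromosome 5, 55851379 to 55922853), had 60 and 2130 counts (0.0239, interval 0.0182 to 0.0309), and SEMA4A, a membrane semaphorin, had 13 and 766 (0.0144, interval 0.00764 to 0.0248). In WT these 3 genes were well expressed, at 46.4, 10.4 and 9.53 FPKM. CPXM2, a carboxypeptidase-like protein, had 3 and 324 counts (0.00786, interval 0.00161 to 0.0232), C16orf54 had 2 and 267 (0.00636, interval 0.000766 to 0.0232), DNASE2, the lysosomal DNase, had 1 and 143 (0.00594, interval 0.000149 to 0.0336), and CPNE7, a copine, had 3 and 148 (0.0172, interval 0.00351 to 0.0513). With 1 to 3 counts left in ΔOGT-ISS, these 4 genes were near the limit of detection there. CHFR, a mitotic checkpoint ubiquitin ligase, had 7 and 378 counts (0.0157, interval 0.00628 to 0.0327), and overlaps GOLGA3 on the same strand. ST3GAL6, a sialyltransferase, had a ratio of 0.0435 (0.0279 to 0.0650) and NT5DC3 of 0.0401 (0.0226 to 0.0660).

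The most abundant genes among the calls, a group added after the values were seen, were mostly NK effector genes on the lower side. By FPKM they were GZMB, GZMA, CCL5, S100A9, GNLY and ALOX5AP, the last encoding the protein that presents arachidonic acid to 5-lipoxygenase (79.4 and 359.7 FPKM, ratio 0.216, interval 0.205 to 0.227). On the higher side they were the copine CPNE1 (202 and 79.1 FPKM, 2.50), IFI27, the integrin subunit ITGA4, the signal regulatory protein SIRPG (76.1 and 28.5, 2.61), the collagen chain COL5A2 (57.2 and 19.4, 2.89) and RGS1, a regulator of G protein signalling (41.1 and 11.2, 3.58). CPNE1 overlaps RBM12 on the same strand. Without a known strand setting, reads of overlapping genes cannot be told apart, which also touches PALLD with CBR4, GCSAM with C3orf52, ST3GAL6 with DCBLD2, RUNX2 with SUPT3H, IL18R1 with IL1RL1, and NLGN1 and SIRPG with their antisense genes.

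The granule effector list held granzymes, perforin and granulysin beside other genes such as CTSC, SRGN, SERPINB9 and FASLG. Its members lay mostly below WT. Of 15 genes counted 5 were called lower and 0 higher, 14 had log2 ratios below 0, and the median was -0.65, against 0.01 over all genes. For this and the following lists, the shares over all counted genes were 2.42% lower and 0.785% higher. Summed over the list, the level was 4215 CPM in ΔOGT-ISS and 7101 in WT, and in the 48 h pair 5395 and 5594. GNLY, the pore-forming granulysin, had 1422 counts in ΔOGT-ISS and 7272 in WT (64.1 and 377 FPKM), a ratio of 0.166 (0.157 to 0.176). GZMB, the most abundant granzyme, had 9471 and 27669 counts (372 and 1252 FPKM), a ratio of 0.291 (0.284 to 0.298). For both genes the WT library stood more than 3-fold above ΔOGT-ISS. GZMA had a ratio of 0.343 (0.334 to 0.352), GZMH of 0.292 (0.267 to 0.319) and GZMM of 0.373 (0.345 to 0.404). PRF1, which encodes perforin, had 8682 and 10819 counts and NKG7, a granule membrane protein, 24464 and 34778, and their ratios of 0.681 (0.662 to 0.701) and 0.597 (0.588 to 0.607) were not called. CTSC, the protease that activates granzymes, was at 1.06 (1.04 to 1.07). The 17 counted genes of granule exocytosis had 0 calls, with RAB27A at 0.575 (0.553 to 0.597) and DOCK8 at 1.28 (1.26 to 1.31). RAB27A lies on chromosome 15, whose genes lay below the general level as a whole, as described below. In these bulk libraries, fewer cells that express a gene and less RNA per cell cannot be told apart.

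**Figure D2:**
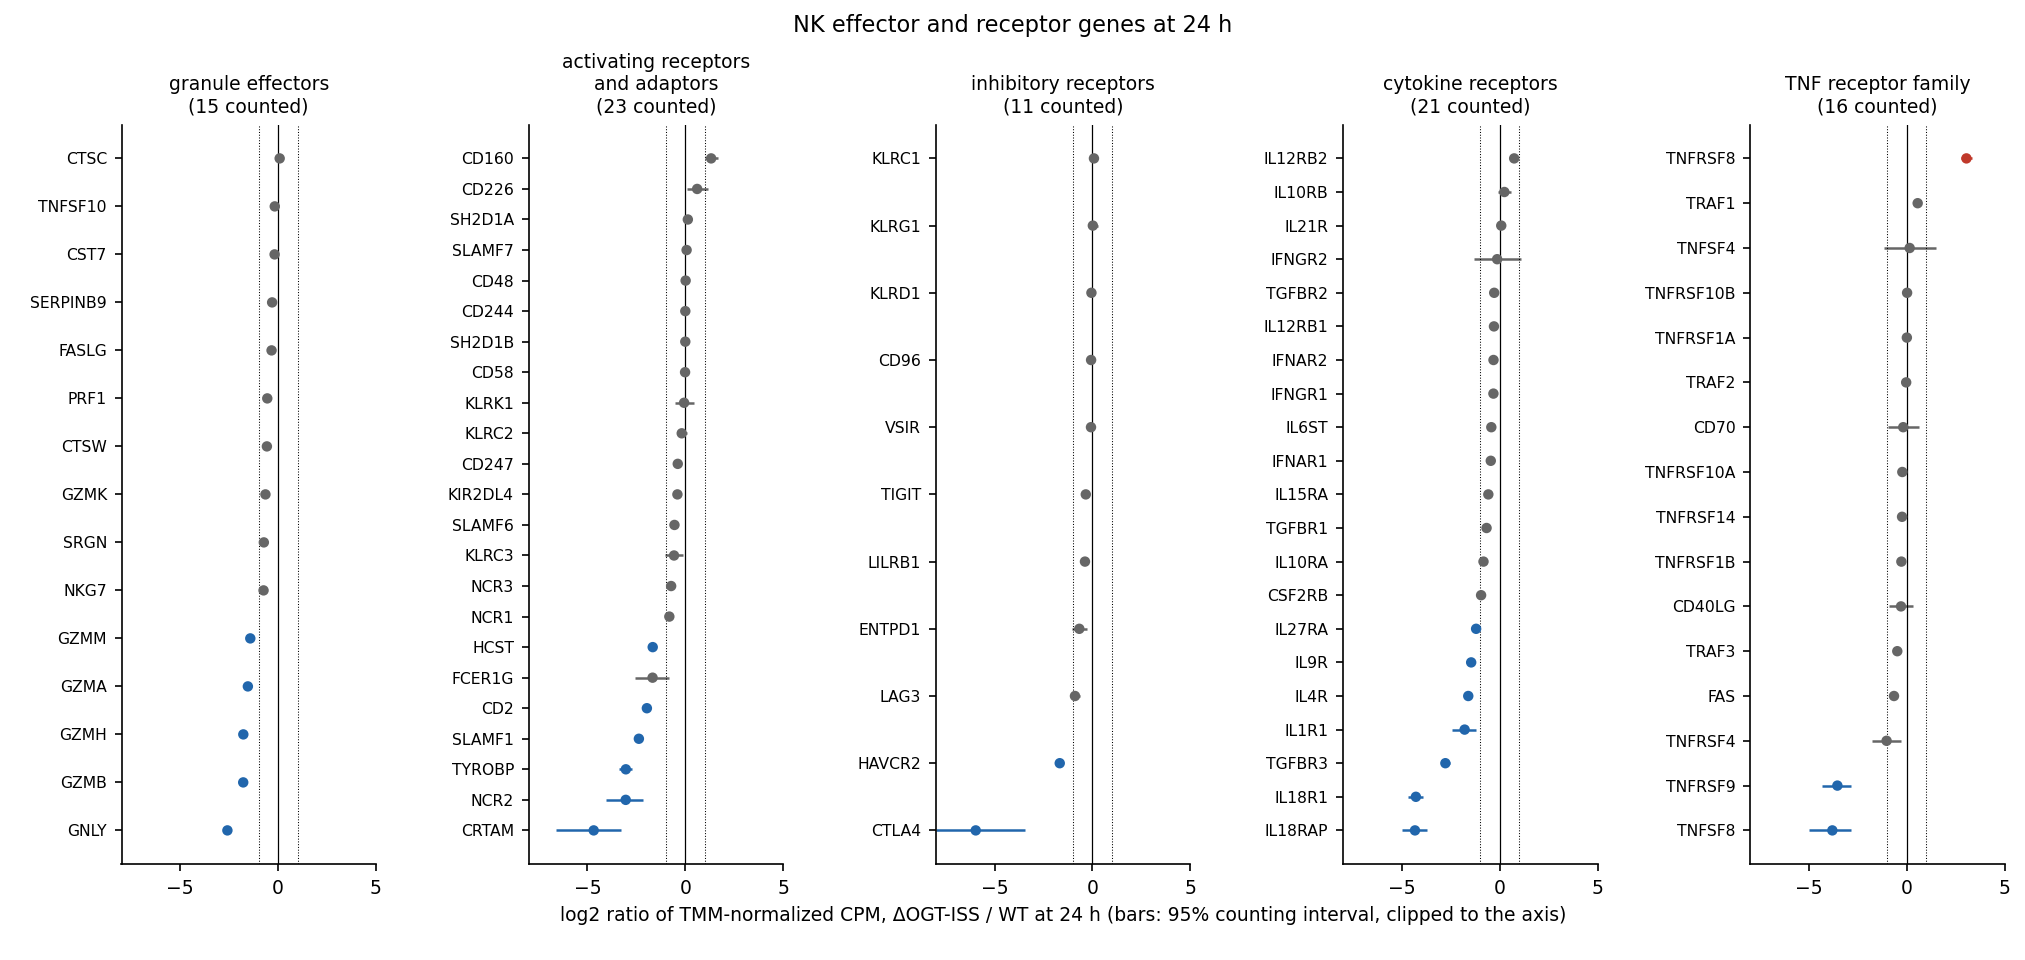
Log2 ratio of TMM-normalized CPM, ΔOGT-ISS over WT at 24 h, for each counted gene of 5 lists; points are single-library ratios, bars their 95% counting intervals clipped to the axis, and dotted lines mark 2-fold. Blue points are called lower and red higher: 5 of 15 granule effectors, 6 of 23 activating receptors and adaptors, 2 of 11 inhibitory receptors and 7 of 21 cytokine receptors are blue, and TNFRSF8 is the 1 red point.

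Activating receptors and adaptors showed lower calls in 6 of 23 members and 0 higher, with 17 log2 ratios below 0 and a median of -0.40. The adaptor TYROBP had 95 counts in ΔOGT-ISS and 662 in WT, a ratio of 0.122 (0.0972 to 0.151). The adaptor HCST, its neighbour on chromosome 19, had 396 and 1066 counts, a ratio of 0.315 (0.280 to 0.354). Both adaptors were thus lower, while CD247 stood at 0.766 (0.732 to 0.800) and FCER1G, with 17 and 46 counts and a ratio of 0.314 (0.169 to 0.558), was not called. Among the receptors, SLAMF1 had 694 and 3049 counts (0.193, interval 0.178 to 0.210), the adhesion receptor CD2 had 313 and 1036 (0.257, interval 0.225 to 0.291), NCR2 (NKp44), which signals through TYROBP, had 12 and 84 (0.121, interval 0.0603 to 0.223), and CRTAM had 4 and 87 (0.0390, interval 0.0104 to 0.104). NCR1 (NKp46) at 0.568 (0.538 to 0.600) and NCR3 (NKp30) at 0.606 (0.576 to 0.637) were not called. CD244, CD48, SLAMF7 and SH2D1A had ratios between 1.00 and 1.09. CD160, a receptor for HVEM, had 291 and 99 counts and a ratio of 2.50 (1.98 to 3.17), just short of a call.

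Of 18 inhibitory receptors 11 were counted, with 2 called lower, 0 higher and a median log2 ratio of -0.34. CTLA4 had 1 and 53 counts, a ratio of 0.0160 (0.000398 to 0.0932). HAVCR2 (TIM-3) had 448 and 1213 counts, a ratio of 0.314 (0.281 to 0.350), and overlaps MED7 on the same strand. KLRC1 (NKG2A), KLRD1 (CD94) and CD96 had ratios of 1.05, 0.963 and 0.952, the first 2 being the subunits of a receptor for HLA-E. Of 25 counted genes of proximal signalling 1 was higher and 1 lower, beside 0.785% and 2.42% of all counted genes. Single calls in a list of this size lie near those shares. CBLB, a ubiquitin ligase that restrains lymphocyte activation, had 4931 and 1469 counts (2.85, interval 2.69 to 3.02), and the adaptor LAT2 had 873 and 1734 (0.427, interval 0.394 to 0.464). ZAP70, LCK, FYN and VAV1 had ratios between 0.974 and 1.08.

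Cytokine receptors other than those of IL-2 included 7 of 21 members called lower and 0 higher, with a median log2 ratio of -0.58. Both subunits of the interleukin 18 receptor were lower: IL18R1 (chromosome 2, 102311529 to 102398775) had 66 counts in ΔOGT-ISS and 1089 in WT, a ratio of 0.0515 (0.0395 to 0.0660), and IL18RAP (chromosome 2, 102418689 to 102452565) had 24 and 409, a ratio of 0.0498 (0.0316 to 0.0752). IL1R1, which lies in the same cluster on chromosome 2, had 32 and 94 counts and a ratio of 0.289 (0.187 to 0.436). The 3 genes of this cluster were thus lower together. TGFBR3, a co-receptor for TGF-beta, had a ratio of 0.146 (0.124 to 0.171), IL4R of 0.329 (0.309 to 0.350), IL9R of 0.365 (0.341 to 0.389) and IL27RA of 0.434 (0.396 to 0.476). The interleukin 12 receptor did not follow, with IL12RB1 at 0.817 (0.756 to 0.883) and IL12RB2 at 1.67 (1.59 to 1.76).

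The IL-2 receptor and STAT5 response list held 24 counted genes, of which 5 were lower and 0 higher, with a median log2 ratio of -0.17. IL2RA, the inducible high-affinity subunit, had 1158 counts in ΔOGT-ISS and 2890 in WT, a ratio of 0.340 (0.318 to 0.364). IL2RB and IL2RG, the signalling subunits, had ratios of 0.970 (0.952 to 0.989) and 0.792 (0.748 to 0.839), and JAK1, JAK3, STAT5A and STAT5B lay between 0.819 and 0.944. Among the feedback inhibitors, SOCS3 had 0 and 29 counts, with an interval of the ratio that ended at 0.115, and SOCS1 had 26 and 91 (0.243, interval 0.151 to 0.379), while CISH had 9925 and 9138 (0.922, interval 0.896 to 0.949). The lower calls among these inhibitors were thus the weakly expressed SOCS1 and SOCS3, not the abundant CISH. SOCS2, with 2322 and 2988 counts, lay between at 0.660 (0.625 to 0.697) and was not called. SOCS1 overlaps RMI2 on the opposite strand. DUSP5, a phosphatase of ERK, had 5772 and 11557 counts (0.424, interval 0.411 to 0.438) and CD69, an early activation antigen, 86 and 257 (0.284, interval 0.220 to 0.364). PIM2 had 4841 and 2053 counts, and its ratio of 2.00 (1.90 to 2.11) was not called.

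In the TNF receptor family 1 of 16 counted members was higher, TNFRSF8, and 2 were lower, TNFSF8 and TNFRSF9. TNFRSF9 (4-1BB), a costimulatory receptor, had 18 counts in ΔOGT-ISS and 179 in WT, a ratio of 0.0854 (0.0495 to 0.139). TRAF1, which binds CD30 and 4-1BB, had 1516 and 878 counts (1.47, interval 1.35 to 1.60), and TNFRSF1B, the most counted member, had 17755 and 18318 (0.823, interval 0.806 to 0.840).

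Of the 12 chemokines listed 6 were counted, all with log2 ratios below 0 and a median of -0.92, and 1 was called. CCL5 had 6719 counts in ΔOGT-ISS and 15959 in WT (193 and 529 FPKM), a ratio of 0.357 (0.347 to 0.368). CCL3 was at 0.777 (0.756 to 0.799) and CCL4 at 0.708 (0.682 to 0.736). XCL1 (0.494) and XCL2 (0.565) are near-identical copies and are uncertain, as are CCL3L3 (458 and 1100 counts, 0.354) and CCL4L2 (329 and 1207, 0.231), which are outside the list and were called lower. Of the 20 cytokines listed 13 were counted, 10 were below 0 and 1 was called, OSM (oncostatin M), with 321 and 741 counts and a ratio of 0.368 (0.322 to 0.420). IFNG had 453 and 666 counts (0.578, interval 0.511 to 0.652) and TNF 876 and 1325 (0.561, interval 0.515 to 0.612), neither of them called. Outside the list IL6 (33 and 126 counts, 0.222, interval 0.147 to 0.328) and IL1RN, the interleukin 1 receptor antagonist (1266 and 4045, 0.266, interval 0.249 to 0.283), were called lower. LTA and LTB, the lymphotoxins, were at 0.933 and 0.961. IL10 had 527 and 309 counts and a ratio of 1.45 (1.26 to 1.67).

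Of 29 lymphoid transcription factors counted, 1 was higher and 4 were lower, beside 0.785% and 2.42% of all counted genes. ZNF683, which encodes HOBIT, a factor of tissue-resident lymphocytes (chromosome 1, 26361634 to 26374522), had 211 counts in ΔOGT-ISS and 3404 in WT (4.54 and 84.3 FPKM), a ratio of 0.0526 (0.0456 to 0.0605). RUNX2 was at 0.251 (0.226 to 0.279), GATA3 at 0.360 (0.318 to 0.406) and BATF at 0.437 (0.386 to 0.495), a call that BATF loses under total-count or upper-quartile scaling. IRF4, a factor induced by antigen receptor signalling, was higher, with 4785 and 1724 counts and a ratio of 2.36 (2.23 to 2.49). TBX21, EOMES, ID2, RUNX3 and IKZF3 had ratios between 0.847 and 1.22, none of them called. Of 9 counted DNA methylation enzymes, DNMT3B, a de novo methyltransferase, was higher (4952 and 1627 counts, 2.58, interval 2.44 to 2.73) and TET2, which oxidises methylcytosine, was lower at 21 and 81 (0.220, interval 0.129 to 0.359). DNMT1 stood at 1.05 (1.03 to 1.07) and DNMT3A at 0.858 (0.744 to 0.990).

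Integrins and adhesion genes split in both directions, with 3 of 20 higher and 2 lower. ITGA4, the alpha subunit of VLA-4, had 17666 counts in ΔOGT-ISS and 7194 in WT, a ratio of 2.09 (2.03 to 2.14). ITGA1, a collagen-binding subunit, had 1211 and 5880 counts (0.175, interval 0.164 to 0.186) and overlaps PELO, and ITGA6, a laminin-binding subunit, had 1551 and 3306 (0.398, interval 0.375 to 0.423). Subunits that pair with ITGB1 thus went in opposite directions, while ITGB1 itself was at 0.799 (0.769 to 0.832). The direction of ITGB1 depended on the level of its neighbouring genes, as described below. NRXN3, a neurexin and so a partner of neuroligins, had 130 and 30 counts (3.68, interval 2.46 to 5.67), higher together with NLGN1. Of 14 trafficking receptors counted, S1PR1, which guides exit from lymph nodes, was higher (1726 and 572 counts, 2.56, interval 2.33 to 2.82), and CCR7, which guides entry, was lower (103 and 339, 0.258, interval 0.205 to 0.323). For the adhesion and trafficking lists too, the shares over all counted genes were 0.785% higher and 2.42% lower.

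Type I interferon response genes are shown with their promoters, because 4 members of the list were called while the rest were not. These genes are switched on by a complex that forms after interferon signalling and binds a motif of repeated GAAA, the interferon-stimulated response element. The RefSeq promoter windows on GRCh38.p14 (250 bases before to 50 after the gene start) are shown for the 3 members called higher, the 1 called lower and IFIT1, which was not called. Capitals mark a core of GAAA, any 2 bases and GAAA, found on either strand, and the strand printed is that of the gene. The windows of IFI44L, IFI44, IFI27, OAS3 and IFIT1 are chr1:78620198-78620497, chr1:78649539-78649838, chr14:94110486-94110785, chr12:112938224-112938523 and chr10:89392373-89392672, all on the plus strand.
IFI44L: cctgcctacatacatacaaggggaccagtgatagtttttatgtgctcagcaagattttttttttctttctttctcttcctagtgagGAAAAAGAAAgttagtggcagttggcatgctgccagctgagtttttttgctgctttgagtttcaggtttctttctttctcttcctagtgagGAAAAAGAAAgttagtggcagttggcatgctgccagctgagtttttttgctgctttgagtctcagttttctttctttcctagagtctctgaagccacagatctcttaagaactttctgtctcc
IFI44: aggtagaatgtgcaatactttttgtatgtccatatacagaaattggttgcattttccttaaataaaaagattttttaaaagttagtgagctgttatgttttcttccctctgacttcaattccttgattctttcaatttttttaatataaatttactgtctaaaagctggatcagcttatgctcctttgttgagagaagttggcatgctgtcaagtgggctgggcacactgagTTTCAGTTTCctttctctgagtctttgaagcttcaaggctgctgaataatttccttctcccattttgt
IFI27: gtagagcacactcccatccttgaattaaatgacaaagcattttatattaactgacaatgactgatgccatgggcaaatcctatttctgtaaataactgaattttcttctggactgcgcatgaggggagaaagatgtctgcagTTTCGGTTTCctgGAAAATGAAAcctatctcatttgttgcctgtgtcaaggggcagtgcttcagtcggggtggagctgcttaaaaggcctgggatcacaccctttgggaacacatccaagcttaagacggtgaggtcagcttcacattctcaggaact
OAS3: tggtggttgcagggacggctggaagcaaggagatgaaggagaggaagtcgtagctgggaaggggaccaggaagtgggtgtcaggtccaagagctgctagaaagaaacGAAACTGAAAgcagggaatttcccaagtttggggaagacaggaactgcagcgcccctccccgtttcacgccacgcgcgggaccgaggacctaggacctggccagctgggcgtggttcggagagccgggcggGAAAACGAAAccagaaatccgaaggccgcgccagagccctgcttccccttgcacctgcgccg
IFIT1: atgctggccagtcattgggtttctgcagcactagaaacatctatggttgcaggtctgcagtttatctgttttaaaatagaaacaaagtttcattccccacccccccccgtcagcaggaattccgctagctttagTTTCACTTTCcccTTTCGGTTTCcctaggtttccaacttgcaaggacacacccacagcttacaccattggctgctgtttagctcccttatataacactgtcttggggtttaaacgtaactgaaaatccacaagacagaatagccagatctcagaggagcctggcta
The core was present in all 5 windows, in 2 copies each except for 1 in IFI44. It was found in 22 of the 33 list members with a matched window (66.7%). Over the 10120 matched protein-coding genes counted at 24 h it was in 326 (3.22%), and over all 27305 windows in the table in 3.65%. Among called protein-coding genes it was in 4 of the 74 matched higher ones (5.41%) and 20 of the 281 matched lower ones (7.12%). The 4 include the windows of IFI44L, IFI44 and IFI27 shown above. A match describes letters in this window and is not a site.

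In the 24 h pair 3 interferon genes were higher while the median of the list lay near that of all genes. Of 39 genes counted 3 were higher and 1 was lower, 25 had log2 ratios below 0, and the median was -0.06. IFI44L had 121 counts in ΔOGT-ISS and 4 in WT, a ratio of 25.7 (9.78 to 95.8), its neighbour IFI44 had 489 and 54, a ratio of 7.69 (5.80 to 10.4), and IFI27 had 1833 and 282, a ratio of 5.52 (4.87 to 6.28). OAS3, which makes the activator of RNase L, was lower, with 244 and 562 counts and a ratio of 0.369 (0.316 to 0.429). Other canonical members were not called: ISG15 was at 1.02 (0.923 to 1.12), IFIT1 at 1.10 (0.928 to 1.31), MX1 at 1.47 (1.34 to 1.61) and RSAD2 at 0.508 (0.454 to 0.568). Members that share the printed core thus differed in direction at 24 h. The 19 counted genes of interferon signalling had 0 calls, with STAT4 at 0.537 (0.509 to 0.566) and IRF8 at 0.620 (0.581 to 0.661), and so had the 25 of antigen presentation, with GBP2 at 0.585 and B2M at 0.682.

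Promoters of called genes had a lower median CpG content than those of counted genes. The median ratio of observed to expected CpG was 0.833 over 10120 matched protein-coding genes, 0.614 over the higher and 0.671 over the lower ones. These sets were not matched for abundance. Most called genes were of low abundance, and the part of abundance in the CpG medians was not tested. Single genes ranged widely, from 0 in the windows of IFI44L and IFI44 to 0.958 in that of PLOD2 and 1.04 in that of CHFR. The motif TTCNNNGAA, a core bound by STAT5, was in 1 of 17 matched windows of the IL-2 and STAT5 list (5.88%), that of CISH, which was not called, against 7.88% of all windows.

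Lists of general cell functions held at most 1 call each, beside a share of 3.2% called among all counted genes, so single calls in lists of this size lie near that share. Cell cycle genes had 0 calls among 30 genes of G1/S and 1 among 30 of G2/M, which was CHFR. Among 29 glycolysis and hypoxia genes the 1 call was PLOD2, among 25 ATF4 and amino acid response genes it was CEBPB, a factor of the stress response (1827 and 7532 counts, 0.206, interval 0.196 to 0.217), among 23 NF-kB genes it was the feedback inhibitor TNFAIP3 (377 and 938, 0.341, interval 0.302 to 0.385), and among 22 immediate early genes it was CD69. There were 0 calls among 27 splicing regulators, 15 BCL2 family genes, 36 nuclear and 13 mitochondrial genes of oxidative phosphorylation, 21 of the unfolded protein response and 29 of cholesterol and fatty acid synthesis. Several lists without calls lay mostly on 1 side of 0. Of the 29 listed histone genes 28 were below 0 (median -0.20), of 17 heat shock genes 15 were above 0 (median 0.34), with the abundant HSP90AA1 at 1.55 (1.53 to 1.57), and of 30 MYC and ribosome biogenesis genes 25 were above 0 (median 0.14), with MYC at 1.55 (1.48 to 1.62) and NOP56 at 1.47 (1.43 to 1.51). Histone genes outside the list were called in both directions, with H3C14 higher (324 and 64 counts, 4.30) and H2AC19 (945 and 1808, 0.444), H2AC8 (2 and 20) and H3C12 (11 and 44) lower. Of 77 ribosomal protein genes 58 were above 0 with a median of 0.08. Over all lists, 798 distinct genes were counted, of which 14 were higher and 46 lower.

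Markers of other cell types were looked at as a check of what the cultures held. Of 16 myeloid markers 5 were counted and 3 were lower: S100A9 had 1127 counts in ΔOGT-ISS and 7139 in WT (0.134, interval 0.126 to 0.143), S100A8 had 22 and 276 (0.0677, interval 0.0417 to 0.105) and S100A12 had 3 and 54 (0.0472, interval 0.00943 to 0.145). These S100 genes encode calprotectin and a related protein and lie side by side on chromosome 1. The summed level of the list was 48.2 CPM in ΔOGT-ISS and 317 in WT, and 634 and 846 in the 48 h pair. The defining myeloid markers CD14 (4 and 1 counts), LYZ (3 and 5), MPO (2 and 3) and ELANE (0 and 0) were at or near 0 in both libraries. CSF1R (102 and 138 counts) and ITGAM (117 and 201) were counted and not called. Of 13 T cell markers 8 were counted and 2 were higher, CD6 and CD3G, the latter with 49 and 1 counts. CD3D, CD4, CD8A and CD8B had at most 5 counts in either library, and the summed level of the list was 577 CPM and 584. TRBC1 (2320 and 2820 counts), TRBC2 (2425 and 2522), TRAC (697 and 490) and CD28 (1569 and 676) were detected and not called. Of 10 B cell markers 4 were counted, PAX5 (2342 and 1281 counts), IGHM (407 and 193), CD79A (18 and 44) and JCHAIN (14 and 3), and 0 were called. Erythroid and platelet markers had 2 of 11 counted and 0 called, and epithelial and fibroblast markers 4 of 12 counted and 1 called, COL1A1, with 1 and 17 counts. In the latter list PDGFRB was well detected in both libraries, with 14308 and 15242 counts (87.9 and 108 FPKM), and was not called.

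Some called genes sat beside each other in the genome, a count made after the data were seen. Among adjacent counted protein-coding genes there were 12431 pairs, of which 839 had at least 1 gene called and 59 (0.475%) had both. The 3.61% of single genes called is a share of genes and not of pairs. No expected share of pairs was computed. Of the 59, 51 were lower together, 4 were higher together and 4 went in opposite directions. They took in 103 of the 450 called protein-coding genes. The pairs included IFI44L with IFI44, ALCAM with CBLB, GZMH with GZMB, HCST with TYROBP, CHI3L1 with CHIT1, CD2 with CD101, and the runs S100A9, S100A12, S100A8 and MAP4K4, IL1R1, IL18R1, IL18RAP. MAP4K4, a kinase outside the receptor family, had 1521 and 3375 counts and a ratio of 0.383 (0.360 to 0.407). On chromosome 15 there were 12 such pairs, 8 of them with members of the GOLGA8 family, whose copies are nearly identical and uncertain. Among called genes on opposite strands with starts within 1000 bases of each other there were 2 pairs, GOLGA8M with WHAMMP2 and C16orf54 with an unnamed transcript.

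Some chromosomes lay off the general level as a whole. The 353 protein-coding genes of chromosome 15 with at least 50 counts in one library had a median log2 ratio of -0.50, with 96.0% of them below the median of all such genes. Chromosome 7 had a median of -0.26 over 489 genes, chromosome 18 of 0.22 over 131 and chromosome 20 of 0.18 over 289. The shifts of chromosomes 15, 7 and 20 also stood in the 48 h libraries, at -0.52, -0.28 and 0.22, whereas chromosome 18 was at -0.04 there. With the median of 51 neighbouring genes removed, 139 genes were higher and 433 lower. Of the genes named here DNMT3B, CPNE1 and SIRPG on chromosome 20, LAT2 on chromosome 7, GATA3 on chromosome 10, ITGA4 on chromosome 2 and IL27RA on chromosome 19 were then no longer called, the last with an interval that ended at 0.501. The 5 granule genes, TYROBP, HCST, IL18R1 and IL18RAP were still called. On chromosome 15 the log2 ratio of RAB27A went from -0.80 to -0.33 and that of B2M from -0.55 to -0.22. Chromosome 10 had a median of -0.01, but its 25th percentile of -0.38 was the lowest after those of chromosomes 15 and 7. IL2RA on chromosome 10 went from -1.55 to -1.11 and was still called. ITGB1 on the same chromosome, which was not called, went from -0.32 to 0.46 and so changed sign.

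The 48 h libraries, which share no library with the 24 h pair, were set beside the calls. They held 11305599 counts in ΔOGT-ISS and 10889986 in WT, and 8.56% of their counted genes were called higher and 2.79% lower. Their low counts are unusual, with 0.973 and 0.932 genes at 1 count for each gene at 2 counts, against 1.70 and 1.72 at 24 h. Of the 115 genes called higher at 24 h that were counted at 48 h, 102 (88.7%) had the same sign, 53 were called the same way and 1 was called the opposite way. Of the 375 called lower, 263 (70.1%) had the same sign, 88 were called the same way and 31 the opposite way. Over all 15586 genes counted at both times 57.8% had the same sign. The median log2 ratio at 48 h was 1.51 for the higher genes and -0.68 for the lower genes.

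Among the higher genes, PLOD2 (186 and 0 counts at 48 h), NLGN1 (291 and 4), TNFRSF8 (481 and 67), CAVIN4 (115 and 11) and DNMT3B (658 and 141) were also called higher at 48 h, and IRF4 had a ratio of 2.19 (1.96 to 2.45), not called. Among the lower genes, CHI3L1 (483 and 6531), CHFR (8 and 151), IL18R1 (147 and 810), IL18RAP (61 and 248), TNFSF8 (21 and 135), TYROBP (15 and 68) and HCST (257 and 640) were also called lower. The granule genes had other ratios at the later time. GZMB had a ratio of 0.997 (0.969 to 1.03) at 48 h, GZMH of 1.47 (1.25 to 1.72), GNLY of 0.756 (0.706 to 0.809) and GZMA of 0.509 (0.494 to 0.526), and the median log2 ratio of the list was 0.29 there with 0 lower calls. ZNF683 (0.847, interval 0.508 to 1.41) and S100A12 (1.06, interval 0.878 to 1.27) were likewise not called at 48 h, and CCL5 had 2814 and 2272 counts there. No test was made of how the ratios differ by time.

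In the interferon list 31 members were called higher at 48 h, where the median log2 ratio was 2.12 against -0.06 in the earlier pair, and its summed level went from 2242 and 2302 CPM in the 24 h pair to 5892 and 1586 in the 48 h pair. MX1 had 6303 and 196 counts at 48 h, a ratio of 29.8 (25.8 to 34.5), and RSAD2 had 1998 and 123. IFI44L, IFI44 and IFI27 had 990 and 0, 976 and 14 and 3153 and 25 counts at 48 h, and these 3 were higher in ΔOGT-ISS at both times.

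Of the 357 lower protein-coding genes, 201 (56.3%) had their highest CPM of the 4 libraries in WT at 24 h, 108 in WT at 48 h and 48 in ΔOGT-ISS at 48 h. Over all counted protein-coding genes 27.9% were highest in WT at 24 h. A gene called lower cannot be highest in ΔOGT-ISS at 24 h, so its share is raised by the choice and is given as a description. Of the 93 higher protein-coding genes 51 were highest in ΔOGT-ISS at 24 h and 38 in ΔOGT-ISS at 48 h. A gene called higher cannot be highest in WT at 24 h, so these counts are likewise raised by the choice and are a description.

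**Figure D3:**
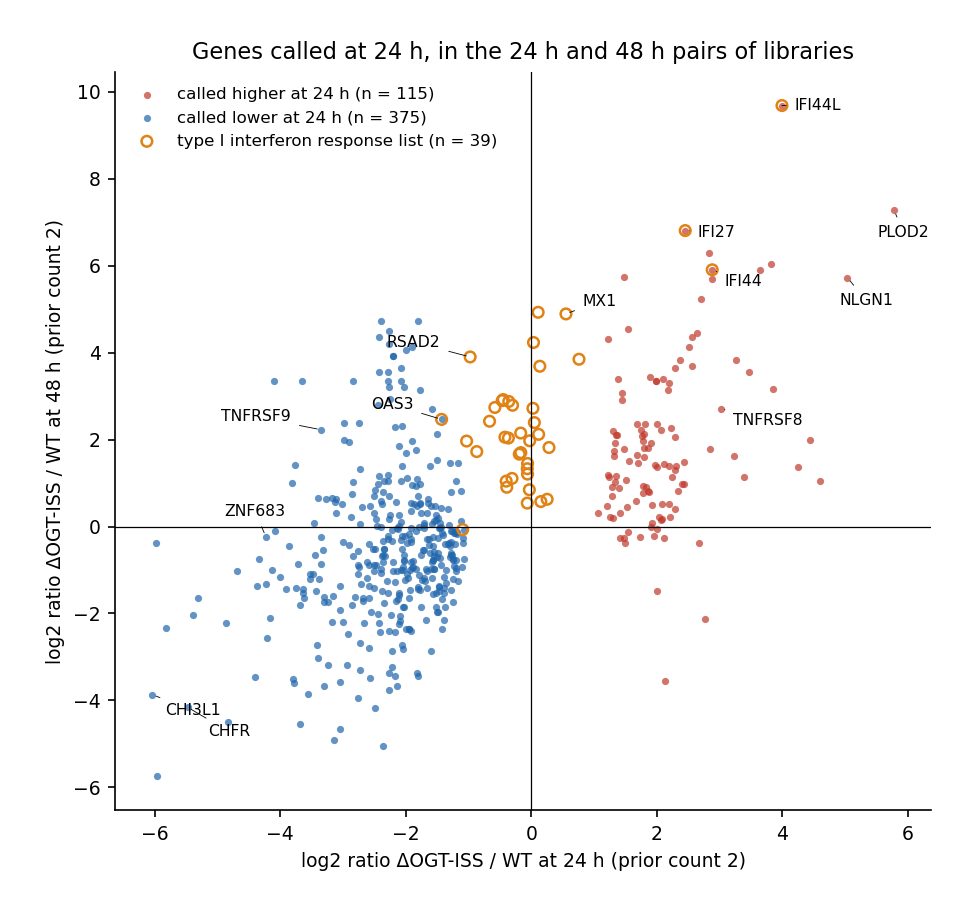
Log2 ratio of ΔOGT-ISS over WT at 24 h (horizontal) and 48 h (vertical), with a prior count of 2, for genes called at 24 h and counted at 48 h (115 higher in red, 375 lower in blue); orange rings mark the 39 interferon list genes counted at 24 h. Most red points lie above 0 on the vertical axis, blue points spread to both sides of it, and most rings stand near 0 at 24 h and above 0 at 48 h.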

How the data were processed

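Total RNA of NK-92 cells was depleted of ribosomal RNA and made into libraries with the CORALL kit, per the labels' protocols. Per the submitters' processing notes the tools were HISAT2 2.2.0, SAMtools 1.15.1 and featureCounts 2.0.1 on hg38; what each did is not stated. Strand setting, annotation release and the treatment of multi-mapping reads or molecular identifiers are not known from the sources used here, so overlapping genes and near-identical copies are uncertain. The deposited counts are whole numbers per Ensembl gene without normalization. The deposited FPKM values are the authors' counts scaled by a transcript length column and the library total, and were used for levels between genes. The labels do not say whether the libraries come from separate cultures.

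TMM factors (edgeR 4.0.16, R 4.3.3) were computed over the 4 libraries on 17492 genes that filterByExpr retained (minimum count 10). Factors over all genes, computed first, were replaced after their results were seen and are given as an alternative. Log2 ratios used a prior count of 2. Intervals were computed with scipy 1.17.1, and the interval and call code was tested on simulated data. The floor for a count of 0 was 3 counts, or 0.103 CPM in ΔOGT-ISS and 0.121 in WT at 24 h. Symbols came from the FPKM table and a reference name table, positions from GENCODE 29 and promoters from RefSeq GRCh38.p14. With 1 library a side no p-value was computed.

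The comparison and the 40 gene lists were chosen with earlier results of these data known. Genes were named by a rule: OGT and OGA, then the 12 with the largest bound nearest to 1 in each direction among protein-coding genes with at least 100 counts in one library, then from each list up to 4 called members, or the 2 furthest from 1. Other named list members, called genes named from outside a list, the 6 most abundant called genes each way, the 2 motifs, the promoters shown and the adjacent pairs were chosen after values were seen. Some items that these choices named are not reported here. The files held 0 columns of other samples.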

Additional observations from a re-analysis of the deposited data

Results flagged for a closer look

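The genes below, with at least 10 counts in all 4 libraries, were called in opposite directions at 24 h and 48 h. Each time has 1 library per line, and no test of the change with time was made.

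TNFRSF9, the costimulatory receptor 4-1BB, stood at 0.0854 (0.0495 to 0.139) in the earlier pair and 4.99 (2.74 to 9.83) in the later. OAS3, an interferon-induced gene, had 0.369 (0.316 to 0.429) and then 5.58 (4.37 to 7.21). SPINK5, a serine protease inhibitor, had 0.115 (0.0724 to 0.175) and 5.56 (3.14 to 10.6). LGALS3BP, a secreted galectin-binding protein, had 0.331 (0.273 to 0.400) and 6.90. In all 4 genes ΔOGT-ISS was the lower library at 24 h and the higher library at 48 h. Over all genes counted at 24 h, 33 were called in opposite directions, 31 of them lower at 24 h and higher at 48 h. This total sets no minimum count at 48 h, unlike the opposite calls given with the 48 h libraries.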

How the results depend on the processing

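The call counts depended on the call rule more than on the scaling. Against 153 higher genes, 471 lower genes and 60 called list members, requiring at least 50 counts in one library gave 93 higher and 285 lower. A ratio past 2-fold without the interval gave 1106 higher (5.68% of counted genes), 1601 lower (8.22%) and 94 list members, and an interval past 4-fold gave 24, 134 and 26. The share of called genes with the same sign at 48 h was 74.5%, and 83.6% for those with at least 50 counts in one 48 h library. TMM over the 24 h pair, DESeq2 1.42.0 size factors, upper-quartile factors, total counts, TMM over all genes (added after seeing the data) and no filter stayed within 1.5 times of these counts, and the 5 scalings moved log2 ratios by at most 0.03. Of 94 called genes named or in a list, 1 lost its call under them, BATF, under upper-quartile factors and under total counts, where its interval ended at 0.506. With the local median removed 538 calls were kept, 86 were lost, 26 of them on chromosome 15, and 34 were gained, and 7 of the 94 genes lost the call. Among single genes and list medians 13 other values moved past their interval, by no more than the shift of the scaling except the myeloid median, which was -0.47 with no filter. No value of a called named gene changed direction under a scaling or as a ratio of FPKM, which is a ratio by library total. Calls lie past 2-fold and the scalings moved log2 ratios by at most 0.03, so no change of direction was possible. No paired analysis was possible because each group has 1 library, and no replicate could be left out. Genes under about 100 counts carry wide intervals, and smaller differences in them were not detectable at this depth.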
